A study of Homo sapiens with 4 samples.

Results

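The 43 genes described here encode the machinery of autophagy and of the lysosome. They were chosen by name, with no measured value in the rule, from 18323 genes that the deposited array values could name. The choice was not blind, since earlier results of these data were known when it was made. Each of the 43 was read from 1 probe set, and all 43 passed the filter on dim probe sets, which left 15194 genes to test. The arrays measured RNA of HK1 and HK1EBV, human nasopharyngeal carcinoma lines, with 1 array for each of 4 groups: HK1 with DMSO, HK1 with CAPE, HK1EBV with DMSO and HK1EBV with CAPE. DMSO (dimethyl sulfoxide, 0.1%) was the vehicle control and CAPE (caffeic acid phenethyl ester, 110 µM) the treatment, both for 24 h. HK1EBV is by its name the HK1 line carrying Epstein-Barr virus, and the labels say nothing more of the virus, of clones or of separate cultures.

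In autophagy, a cell encloses its own material in a double membrane and delivers it to the lysosome. The ULK kinase complex starts the process, a lipid kinase complex around BECN1 marks the membrane, ATG9A and the WIPI proteins help it grow, and a conjugation system attaches proteins of the ATG8 family to it. Receptors such as SQSTM1 bind cargo on one side and ATG8 proteins on the other. Lysosomes hold hydrolases in a lumen kept acidic by the V-ATPase, a proton pump. The transcription factors TFEB, TFE3 and MITF are known to switch on many lysosomal genes. RNA levels of these genes do not measure the flow of material through the pathway, which was not measured here.

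The values are taken to be on the log2 scale, which their method of summary gives but the sources do not state, so that a difference of 1 is read as a doubling and every fold rests on that base. No group had a replicate. The gene's own error of a CAPE difference therefore rests on how far HK1 and HK1EBV disagree. That of a line difference rests on how far DMSO and CAPE disagree. limma, the gene-wise test used below, draws this error toward a value shared by all genes. The shared value is given more weight than the gene's own spread, which still widens the moderated SE where it is large. For the CAPE difference that SE was 0.109 for UVRAG, whose lines nearly agreed, and 0.177 for WIPI1, whose lines lay 0.62 apart. Array medians lay between 2.23 and 2.27. Epithelial identity was checked on 6 markers with a probe set, of which KRT5, KRT14, EPCAM, CDH1 and KRT18 read 6.49 to 10.3 on the 4 arrays. The keratin gene KRT8 went the other way, at 2.26 to 3.05, near the array medians. Of 5 leukocyte markers, PTPRC, CD3E and CD163 lay below the filter, while CD14 read 2.05 to 2.26 and CSF1R 1.72 to 2.31, also near those medians.

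Most of the 43 genes were higher with CAPE in both lines. This held for 37 of them (86.0%), against 32.1% of all genes tested, while 4 were lower in both lines, against 29.5%, and 2 went opposite ways. The 2 CAPE arrays both read above the 2 DMSO arrays for 26 genes, against 18.4% of genes tested, and both below for 4, against 17.7%. The median difference was 0.31 in HK1 and 0.33 in HK1EBV, beside 0.018 and -0.0032 over all genes tested. At least 1.5-fold higher in both lines were 8 genes (18.6%), SQSTM1, NBR1, CALCOCO2, GABARAPL1, ULK1, WIPI1, CD68 and NEU1, where 1.35% of the genes tested were. None (0) was 1.5-fold lower in both lines, against 1.56%. At 2-fold 4 were higher, against 0.27%, and none (0) lower, against 0.204%. At 1.2-fold 22 were higher, against 8.18%, and ATG3 and ATG16L1 lower, against 7.49%. Levels bear on this background: among genes brighter than the median probe set 1.86% were 1.5-fold higher in both lines, 34.8% were higher in both at any size, and 42 of the 43 were that bright.

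In the gene-wise test, limma with the cell line as a term, none (0) of the 43 passed for CAPE after Benjamini-Hochberg adjustment over all genes, and the lowest adjusted p was 0.0672. Of all genes tested 0.00658% passed. At an unadjusted p under 0.05, 23 of the 43 were higher and 2 lower, where 19.5% of all genes passed in either direction. The limma result turned on 57 genes whose CAPE difference was identical in both lines, which made their residual exactly 0. Without them the same limma fit passed 15 of the 43, all higher, at an adjusted p under 0.05, against 4.07% higher and 4.14% lower of all genes in that fit, 8.21% together. Where a second adjusted p is given below, it comes from that fit. Fewer cells carrying an RNA and less of it per cell cannot be told apart in such bulk samples.

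**Figure D1:**
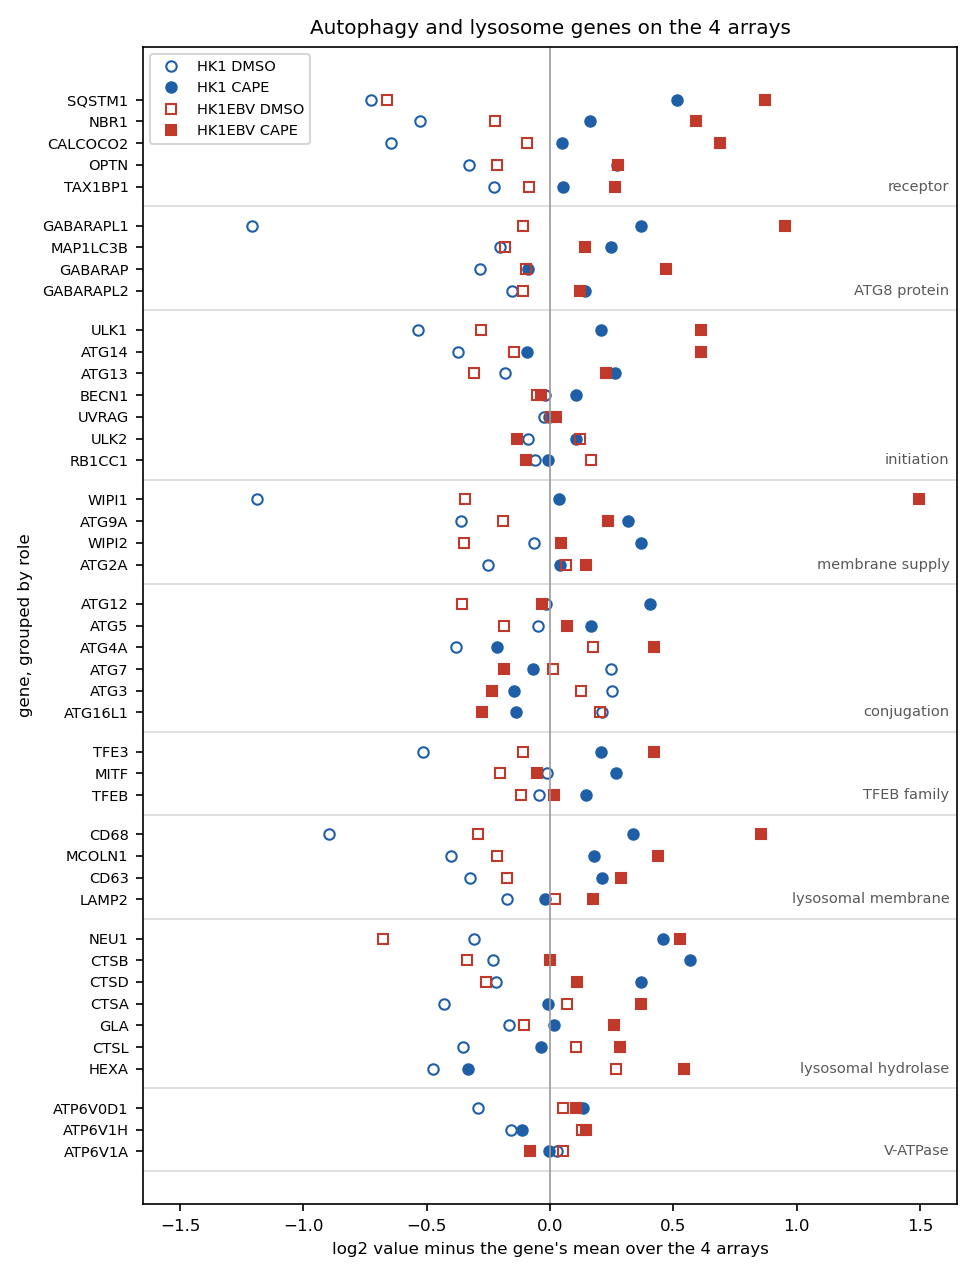
Each row is a gene, grouped by role, and the x axis is its log2 value on each of the 4 arrays minus its mean over them. Open symbols are DMSO and filled symbols CAPE, circles HK1 and squares HK1EBV, 1 array each. Filled symbols lie to the right of both open ones in 26 of the 43 rows, among them all 5 receptors.

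The cargo receptors were the group with the widest difference, with medians of 0.69 in HK1 and 0.78 in HK1EBV. All 5 were at least 1.2-fold higher in both lines, as 8.18% of genes tested were. SQSTM1, which encodes p62, a receptor for ubiquitinated cargo, read 6.35 with DMSO and 7.59 with CAPE in HK1, and 6.42 and 7.95 in HK1EBV. The DMSO arrays were nearly level between the lines and both CAPE arrays stood far above them. Its mean CAPE difference was 1.39 ± 0.13 (n = 2 lines, moderated SE from limma), or 2.61-fold, the 21st highest of the genes tested (limma adjusted p = 0.0672, or 0.000505 without the genes of zero residual). SQSTM1 is also known as a target of the oxidative stress factor NRF2, so it belongs to more than one response.

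NBR1, a receptor of like build to p62, read 4.85 and 5.54 in HK1 and 5.15 and 5.97 in HK1EBV. CALCOCO2, also called NDP52, which recognises damaged membranes and invading bacteria, read 4.49 and 5.18 in HK1 and 5.04 and 5.82 in HK1EBV. In both genes the 4 arrays kept one order, HK1 with DMSO lowest and HK1EBV with CAPE highest. The mean differences were 0.75 ± 0.11 for NBR1 and 0.74 ± 0.11 for CALCOCO2 (n = 2 lines, moderated SE from limma), with limma adjusted p = 0.0830 for each, or 0.00703 and 0.00744 without the genes of zero residual. OPTN, a receptor for damaged mitochondria, was higher by 0.60 and 0.49, which fell short of 1.5-fold in HK1EBV (second limma adjusted p = 0.0284). TAX1BP1, a receptor related to CALCOCO2, was higher by 0.28 and 0.35.

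The ATG8 proteins, the small ubiquitin-like tags on the autophagosome, were unequal. GABARAPL1 read 4.02 with DMSO and 5.60 with CAPE in HK1, and 5.12 and 6.18 in HK1EBV. Both CAPE arrays lay above both DMSO arrays, and the HK1EBV control was already above the HK1 control by 1.10. Its mean difference was 1.32 ± 0.16 (n = 2 lines, moderated SE from limma), or 2.50-fold, the 27th highest of the genes tested (limma adjusted p = 0.0672, or 0.000932 without the genes of zero residual). The rest of the family was higher by less. MAP1LC3B, the LC3 protein most often used to mark autophagosomes, was higher by 0.45 and 0.32, GABARAP by 0.19 and 0.57 and GABARAPL2 by 0.30 and 0.23. A probe set that MAP1LC3B shares with MAP1LC3B2 was not used. None of the rest passed either limma fit, and the lowest adjusted p was 0.101.

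Among genes of initiation, ULK1, the kinase that starts autophagy, read 4.94 with DMSO and 5.68 with CAPE in HK1, and 5.19 and 6.09 in HK1EBV. Its CAPE arrays lay above its DMSO arrays, with a mean difference of 0.82 ± 0.11 (n = 2 lines, moderated SE from limma; limma adjusted p = 0.0767, or 0.00481 without the genes of zero residual). Its paralog ULK2 was the dimmest of the 43, at 1.07 to 1.33, and differed by 0.20 in HK1 and -0.25 in HK1EBV, so its small values say little. ATG13, the adaptor subunit of the ULK complex, was higher by 0.45 and 0.53, and the scaffold subunit RB1CC1, also called FIP200, differed by 0.06 and -0.26. In the lipid kinase complex, ATG14, the subunit that directs it to autophagy, was higher by 0.28 and 0.76. The core subunit BECN1 differed by 0.13 and 0.02, and UVRAG, the subunit of the endosomal form, by 0.02 and 0.02. Of these 7 genes ULK1 and ATG13 passed the second limma fit, ATG13 at an adjusted p = 0.0431.

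WIPI1, a phosphoinositide-binding protein that gathers at the growing membrane, had the largest mean difference of the 43. It read 4.10 with DMSO and 5.32 with CAPE in HK1, and 4.94 and 6.78 in HK1EBV. The HK1EBV array with CAPE stood well above the other 3, and HK1 with DMSO below them. The mean difference was 1.53 ± 0.18 (n = 2 lines, moderated SE from limma), or 2.89-fold, the 15th highest of the genes tested (limma adjusted p = 0.0672, or 0.000640 without the genes of zero residual). Its paralog WIPI2, which recruits the conjugation machinery, was higher by 0.44 and 0.39. ATG9A, the lipid scramblase carried on vesicles, was higher by 0.68 and 0.43 (second limma adjusted p = 0.0309), and ATG2A, which transfers lipid to the membrane, by 0.29 and 0.08.

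In the conjugation system the genes were evenly divided in direction. Of its 6 genes 3 were lower and 3 higher in both lines, with medians of -0.08 and 0.03. ATG16L1, which sets the site of conjugation, differed by -0.35 and -0.48, and ATG3, the enzyme that passes ATG8 proteins to lipid, by -0.40 and -0.36. ATG7, the activating enzyme, differed by -0.32 and -0.20. For each of these 3 both CAPE arrays read below both DMSO arrays. ATG12, the tag joined to ATG5, was higher by 0.42 and 0.33, ATG5 itself by 0.21 and 0.26, and the protease ATG4A by 0.16 and 0.25. None of the 6 passed for CAPE in either limma fit, and the lowest adjusted p was 0.0824, for ATG16L1 in the second.

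**Figure D2:**
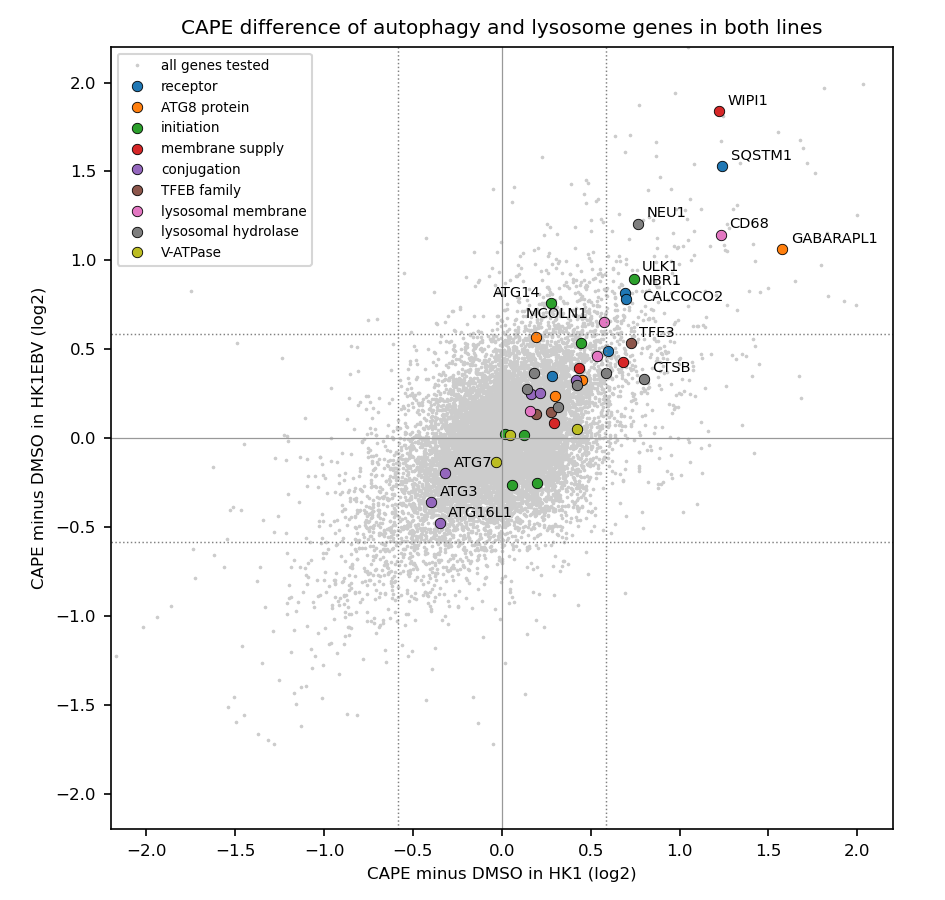
CAPE minus DMSO in HK1 (x axis) against the same in HK1EBV (y axis), both in log2 units, with the 43 genes coloured by role over all genes tested in grey; dotted lines mark 1.5-fold, and 10 genes tested lie outside the axes. The 8 genes past 1.5-fold in both lines sit in the upper right, and ATG16L1, ATG3 and ATG7 in the lower left.

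Of the TFEB family, TFE3 was the gene that stood out. It differed by 0.72 (HK1) and 0.53 (HK1EBV), a mean of 0.63 ± 0.12 (n = 2 lines, moderated SE from limma; limma adjusted p = 0.0974, or 0.0170 without the genes of zero residual). TFEB was higher by 0.19 and 0.14 and MITF by 0.28 and 0.15. These factors are known to act mainly by moving into the nucleus, which RNA levels do not show.

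On the lysosomal membrane, CD68, a heavily glycosylated protein of late endosomes and lysosomes, read 7.28 with DMSO and 8.51 with CAPE in HK1, and 7.88 and 9.03 in HK1EBV. Both CAPE arrays lay above both DMSO arrays. The difference was 1.23 and 1.14, a mean of 1.19 ± 0.11 (n = 2 lines, moderated SE from limma), or 2.28-fold (limma adjusted p = 0.0672, or 0.000751 without the genes of zero residual). CD68 is also used as a macrophage marker. The leukocyte markers as a list had a mean level of 1.23, 1.27, 1.15 and 1.24 on the arrays in the order HK1 DMSO, HK1 CAPE, HK1EBV DMSO and HK1EBV CAPE, with the macrophage gene CD163 below the filter. CSF1R, the macrophage growth factor receptor, was higher by 0.46 in each line, at levels of 1.72 to 2.31.

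MCOLN1, the calcium channel of the lysosome, read 4.82 and 5.40 in HK1 and 5.01 and 5.66 in HK1EBV. Its differences of 0.58 and 0.65 left it just under 1.5-fold in HK1 (mean 0.61 ± 0.11, n = 2 lines, moderated SE from limma; limma adjusted p = 0.0931, or 0.0171 without the genes of zero residual). CD63, a tetraspanin of late endosomes, was higher by 0.53 and 0.46 (second limma adjusted p = 0.0400). LAMP2, a main glycoprotein of the lysosomal membrane, differed by 0.16 and 0.15.

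All 7 hydrolase genes were higher in both lines, with medians of 0.42 and 0.33. NEU1, the lysosomal sialidase, read 5.39 with DMSO and 6.16 with CAPE in HK1, and 5.02 and 6.23 in HK1EBV. The CAPE arrays were close to each other and the DMSO arrays lay below both. Its mean difference was 0.99 ± 0.15 (n = 2 lines, moderated SE from limma), or 1.98-fold (limma adjusted p = 0.0830, or 0.00310 without the genes of zero residual). The cysteine protease CTSB differed by 0.80 (HK1) and 0.33 (HK1EBV) (second limma adjusted p = 0.0396). The aspartic protease CTSD was higher by 0.59 and 0.37, and CTSA, which protects NEU1 in a complex, by 0.42 and 0.30. CTSL, GLA (α-galactosidase A) and HEXA (a subunit of β-hexosaminidase) differed in HK1 by 0.31, 0.18 and 0.14 and in HK1EBV by 0.18, 0.37 and 0.28.

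The V-ATPase genes ATP6V1A and ATP6V1H lay close to 0 in both lines. ATP6V1A, the catalytic subunit, differed by -0.03 and -0.13, and ATP6V1H, a regulatory subunit, by 0.05 and 0.01. ATP6V0D1, of the membrane sector, differed by 0.43 (HK1) and 0.05 (HK1EBV). None of the 3 passed for CAPE in either limma fit.

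TFEB and its relatives bind an E-box, CACGTG, and many lysosomal genes carry it within the longer CLEAR element, which has GT directly before CACGTG and AC directly after it. Promoters, here 250 bases before to 50 bases after a transcription start in RefSeq (GRCh38.p14), were searched on both strands for these letters, the longer of which contains the shorter. Of the 43 genes 36 were in the promoter table, with 54 promoters, since some genes have several starts. CACGTG stood in 8 of these 54 promoters (14.8%), each of a different gene, against 7.26% of all promoters in the table. The 8 genes were CD63, MCOLN1, CTSA, CTSD, NEU1, ATP6V0D1, ATG14 and ATG3, so 6 of the 9 lysosomal genes in the table had it and 2 of 27 autophagy genes. The CLEAR element stood in 1 promoter, that of MCOLN1, against 0.353% of all. The promoters shown are those of 3 lysosomal genes with the E-box, NEU1 being the one of them past 1.5-fold in both lines, and of ATG3, which has it at 2 places and was lower with CAPE. Each is written 5′ to 3′ on the strand of the gene, with CACGTG or the CLEAR element in capitals. The windows are chr19:7522374-7522673, plus strand, for MCOLN1; chr20:45891085-45891384, plus strand, for CTSA; chr6:31862772-31863071, minus strand, for NEU1; and chr3:112561913-112562212, minus strand, for ATG3.
MCOLN1: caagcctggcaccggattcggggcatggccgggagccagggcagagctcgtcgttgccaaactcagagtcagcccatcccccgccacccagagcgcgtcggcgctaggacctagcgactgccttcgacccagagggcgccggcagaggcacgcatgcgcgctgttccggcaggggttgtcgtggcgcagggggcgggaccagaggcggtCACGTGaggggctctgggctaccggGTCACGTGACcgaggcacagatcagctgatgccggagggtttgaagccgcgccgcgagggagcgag
CTSA: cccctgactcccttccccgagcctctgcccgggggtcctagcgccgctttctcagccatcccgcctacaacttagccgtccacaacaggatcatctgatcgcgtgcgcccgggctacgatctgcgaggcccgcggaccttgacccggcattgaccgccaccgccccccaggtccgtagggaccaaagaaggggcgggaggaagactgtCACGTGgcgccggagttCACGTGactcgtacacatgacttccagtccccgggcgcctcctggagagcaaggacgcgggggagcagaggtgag
NEU1: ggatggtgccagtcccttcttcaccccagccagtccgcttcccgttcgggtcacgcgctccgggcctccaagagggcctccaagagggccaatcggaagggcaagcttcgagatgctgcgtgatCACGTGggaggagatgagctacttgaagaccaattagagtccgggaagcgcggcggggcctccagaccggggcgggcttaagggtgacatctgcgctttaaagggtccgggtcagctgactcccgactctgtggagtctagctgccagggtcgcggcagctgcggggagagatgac
ATG3: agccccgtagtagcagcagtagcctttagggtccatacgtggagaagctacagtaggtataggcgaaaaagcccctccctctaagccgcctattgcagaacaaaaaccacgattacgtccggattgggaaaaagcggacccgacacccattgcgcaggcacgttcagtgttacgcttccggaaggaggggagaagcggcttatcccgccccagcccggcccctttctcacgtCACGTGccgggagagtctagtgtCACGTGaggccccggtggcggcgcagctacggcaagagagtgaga

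The 8 genes with CACGTG had median CAPE differences of 0.48 (HK1) and 0.42 (HK1EBV), and the 28 without it 0.37 and 0.36. The split was not alike in both classes. Among lysosomal genes the medians were 0.56 and 0.42 for the 6 with the motif and 0.31 and 0.37 for the 3 without it. Among autophagy genes they were -0.06 and 0.20 for the 2 with it and 0.42 and 0.35 for the 25 without it. Outside the promoter table, and so in neither group, were 5 lysosomal genes: LAMP2, CTSB, HEXA, ATP6V1H and ATP6V1A. Their medians were 0.14 and 0.15. So were 2 autophagy genes, RB1CC1 and UVRAG, with medians of 0.04 and -0.12. These are descriptions of small groups, and no difference between them was tested. WIPI1, SQSTM1, GABARAPL1 and CD68, the genes at least 2-fold higher in both lines, had no CACGTG in these windows, which leaves the rest of each locus unread. The letters TGACNNNGC, the core of the antioxidant response element that NRF2 binds, stood in 8 of the 54 promoters (14.8%), against 13.3% of all. Among the 8 genes past 1.5-fold these were CALCOCO2 and CD68. TGATGNAA, part of the element bound by the amino acid stress factor ATF4, stood in none (0), against 3.62% of all. The promoter of CD68, chr17:7579388-7579687, plus strand, is shown with TGACNNNGC in capitals, and that of WIPI1, chr17:68457447-68457746, minus strand, as the gene with the largest difference, in which none of these motifs was found.
CD68: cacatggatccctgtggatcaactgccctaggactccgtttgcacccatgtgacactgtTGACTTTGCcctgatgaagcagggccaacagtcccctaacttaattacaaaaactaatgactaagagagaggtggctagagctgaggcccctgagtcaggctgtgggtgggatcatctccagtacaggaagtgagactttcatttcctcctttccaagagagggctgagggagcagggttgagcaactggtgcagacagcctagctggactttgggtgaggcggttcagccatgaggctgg
WIPI1: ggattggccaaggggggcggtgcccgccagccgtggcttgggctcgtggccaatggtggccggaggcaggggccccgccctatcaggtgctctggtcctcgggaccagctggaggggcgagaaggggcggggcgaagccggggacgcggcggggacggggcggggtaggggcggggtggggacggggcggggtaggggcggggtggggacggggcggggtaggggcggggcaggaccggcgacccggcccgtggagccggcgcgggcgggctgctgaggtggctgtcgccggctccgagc

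The other genes of the pathway came from a list of 143, of which 134 had a probe set and 131 passed the filter. Their medians, 0.18 and 0.16, lay below those of the 43. Of the 134, 74 were higher in both lines (55.2%, against 32.1% of all genes tested) and 19 lower (against 29.5%). At least 1.5-fold higher in both lines were 12 (8.96%), beside the 1.35% of all genes, and none (0) was 1.5-fold lower. None (0) passed limma for CAPE in the planned fit, with 45 higher and 3 lower at an unadjusted p under 0.05, which 19.5% of all genes passed in either direction. In the fit without genes of zero residual 25 of the 131 (19.1%) passed at a limma adjusted p under 0.05, all of them higher, against 4.07% of all genes.

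The highest mean of the list was that of BNIP3. This gene, a mitophagy receptor known as a hypoxia target, read 7.25 with DMSO and 9.25 with CAPE in HK1, and 7.51 and 8.76 in HK1EBV. The CAPE arrays of both lines stood far above both controls (limma adjusted p = 0.0672, or 0.000640 without the genes of zero residual). Its relative BNIP3L read 6.67 and 8.17 in HK1 and 6.84 and 7.69 in HK1EBV, with the same order of arrays. Both differences were wider in HK1, by 0.74 for BNIP3 and 0.65 for BNIP3L, a contrast with no test. CALCOCO1, a receptor for the endoplasmic reticulum and Golgi, was higher by 0.93 and 0.78, and RETREG1, a receptor for the endoplasmic reticulum, by 0.92 and 0.48. These are the organelle receptors with the largest differences. The 14 measured had medians of 0.18 and 0.14. In both lines 7 were higher and 3 lower, and 4 went opposite ways, against 32.1%, 29.5% and 35.7% of all genes tested. Of 18 other V-ATPase genes measured 12 were higher in both lines, 1 lower and 4 opposite, beside those same shares of all genes. Their medians were 0.19 and 0.08, and the largest difference among them was that of ATP6V0D2. This subunit is best known from osteoclasts and macrophages. It read 1.28 and 2.53 in HK1 and 1.70 and 3.51 in HK1EBV, its DMSO values below the array medians, and its mean difference of 1.53 ± 0.17 (n = 2 lines, moderated SE from limma) was the 16th highest of the genes tested (limma adjusted p = 0.0672, or 0.000548 without the genes of zero residual). The accessory subunit ATP6AP1 was higher by 0.50 and 0.52 and ATP6V0B by 0.21 and 0.56, while ATP6V1C2 differed by -0.48 and -0.14.

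Among genes of nutrient sensing, upstream of the ULK complex, the values ran both ways. DDIT4, also called REDD1, a brake on the growth kinase mTORC1, was higher by 0.95 and 1.40, and SESN2, a leucine sensor that also restrains it, by 0.73 and 0.89 (second limma adjusted p = 0.00141 and 0.00516). Both are known as targets of ATF4. RRAGC, a GTPase that holds mTORC1 at the lysosome, was higher by 0.83 and 0.67 and its regulator FNIP1 by 0.46 and 0.65. Lower by at least 1.2-fold in both lines were RPTOR, the scaffold of mTORC1, at -0.36 and -0.57, and NPRL3, of a complex that restrains it, at -0.30 and -0.33, both named after their values were seen. Neither passed either limma fit, with second adjusted p of 0.0571 and 0.176. As a group these 27 measured genes had medians of 0.04 and 0.14, and 3 of them were 1.5-fold higher in both lines. For the other membrane genes, WDR45, of the WIPI family, was higher by 0.67 and 0.81, and ZFYVE1, a marker of the sites where autophagosomes form, by 0.65 and 0.46. VMP1 was higher by 0.11 and 0.40 and ATG2B differed by -0.39 and 0.13. Of the conjugation system, ATG4D was higher by 0.54 and 0.37 and ATG4B by 0.30 and 0.08, and ATG10 and ATG16L2 differed on average by -0.17 and -0.16. Of initiation, ATG101, NRBF2 and RUBCN differed in HK1 by 0.65, 0.34 and 0.48 and in HK1EBV by 0.29, 0.45 and 0.27, and PIK3R4 differed by -0.55 and -0.04.

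In the fusion machinery VPS39, of the tethering complex that joins vesicles to lysosomes, was higher by 0.79 and 0.67, PLEKHM1, its adaptor, by 0.88 and 0.51, and YKT6 and EPG5 on average by 0.37 and 0.37. Among membrane proteins the chloride transporter CLCN7 was higher by 0.66 and 0.62, the cholesterol exporter NPC1 by 0.39 and 0.92, SCARB2 by 0.42 and 0.63 and the cystine carrier CTNS by 0.59 and 0.45. Among hydrolases SMPD1, the acid sphingomyelinase, was higher by 0.76 and 0.94, the peptidase TPP1 by 0.63 and 0.68, MANBA by 0.88 and 0.55 and ARSA by 0.59 and 0.52. Of these, VPS39, CLCN7, SMPD1 and TPP1 were past 1.5-fold in both lines. Their second limma adjusted p lay at 0.00828, 0.0144, 0.00401 and 0.0130. The genes named lead their groups by size, and the groups ran both ways. Of 13 fusion genes measured 6 were higher in both lines, 3 lower and 3 opposite, with medians of 0.17 and 0.22. Of 12 other membrane genes 9 were higher, 1 lower and 2 opposite. Of 31 other hydrolases and cofactors 17 were higher, 3 lower and 11 opposite, with medians of 0.26 and 0.19. The shares over all genes tested were 32.1%, 29.5% and 35.7%.

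**Figure D3:**
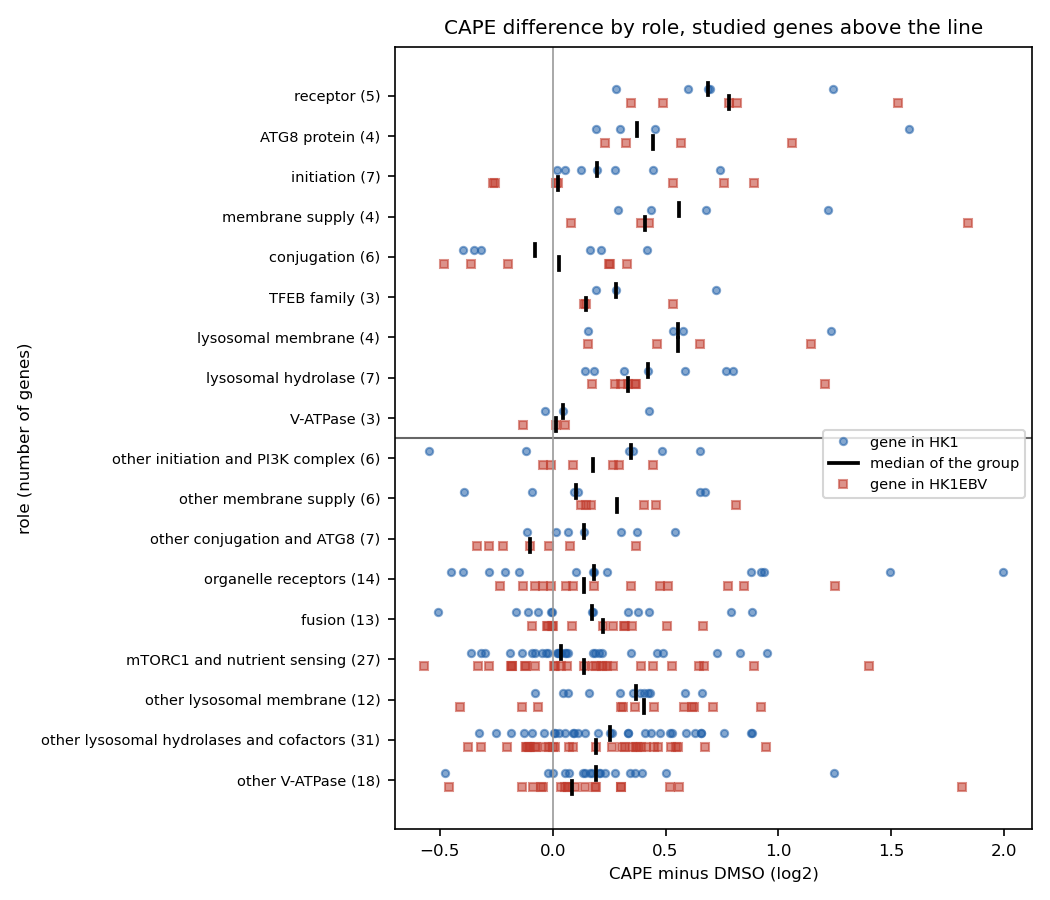
CAPE minus DMSO in log2 units (x axis) for each gene with a probe set, by role (y axis, number of genes in brackets), circles for HK1 and squares for HK1EBV; black bars are group medians. The 43 genes are above the horizontal line and the other pathway genes below it. The receptor group has the highest medians, 0.69 and 0.78, and the medians of the conjugation and V-ATPase groups of the 43 lie around 0.

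The lines were also compared across both treatments. HEXA and WIPI1 passed, both higher in HK1EBV, where 1.32% of all genes tested passed as higher and 1.58% as lower, 2.9% together (limma adjusted p under 0.05). HEXA read 4.22 and 4.36 in HK1 and 4.96 and 5.24 in HK1EBV, in each case DMSO before CAPE. The arrays of the 2 lines did not overlap, and the mean line difference was 0.81 ± 0.11 (n = 2 treatments, moderated SE from limma), with a limma adjusted p = 0.0464. For WIPI1, with the values given above, the line difference was 0.84 with DMSO and 1.46 with CAPE, a mean of 1.15 ± 0.18 (n = 2 treatments, moderated SE from limma; adjusted p = 0.0495). Its HK1 array with CAPE read above its HK1EBV array with DMSO, so the lines overlapped. Neither passed limma without the filter on dim probe sets, at adjusted p = 0.121 and 0.132. HEXA and WIPI1 were also the 2 of the 43 at least 1.5-fold higher in HK1EBV under both treatments, against 2.06% of genes tested, and none (0) was so much lower, against 2.22%.

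In the limma fit without genes of zero residual CALCOCO2, GABARAPL1, ATG4A and CD68 passed for the line too, all higher in HK1EBV, which made 6 of the 43 (14.0%), with adjusted p of 0.0135, 0.00522, 0.0138 and 0.0180. In that fit 6.26% of all genes passed as higher and 5.34% as lower, 11.6% together. CALCOCO2 differed by 0.55 with DMSO and 0.64 with CAPE, and ATG4A by 0.55 and 0.64. GABARAPL1 differed by 1.10 and 0.58, and CD68 by 0.61 and 0.52. None (0) of the 43 passed as lower in HK1EBV in either fit, with 2 lower and 13 higher at an unadjusted limma p under 0.05, as 23.1% of all genes did in either direction. The median line difference of the 43 was 0.15 with DMSO and 0.07 with CAPE, beside 0.014 and -0.0048 over all genes tested. Both HK1EBV arrays read above both HK1 arrays for 8 of the 43, against 21.4% of genes tested, and both below for 3, against 20.9%.

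Of the 131 other pathway genes tested 4 passed for the line in the planned limma fit (3.05%, near the 2.9% of all genes). Without the filter on dim probe sets none (0) passed, nor did any of all genes. Without the genes of zero residual 18 passed, in a fit where 11.6% of all genes did. The 4 of the planned fit are named after their values were seen. SESN3, a stress-induced regulator of mTORC1, was higher in HK1EBV by 1.31 ± 0.14, ATP6V0E2 by 0.93 ± 0.11 and the protease CTSH by 0.80 ± 0.11 (n = 2 treatments, moderated SE from limma). LAMP1, the main lysosomal glycoprotein besides LAMP2, was lower by a mean difference of -0.98 ± 0.11. It read 7.41 and 7.82 in HK1 and 6.48 and 6.79 in HK1EBV, with the lines apart under both treatments. Their limma adjusted p lay between 0.0357 and 0.0453. LAMP1 lies on chromosome 13, and the part of gene copy number in its line difference was not tested.

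**Figure D4:**
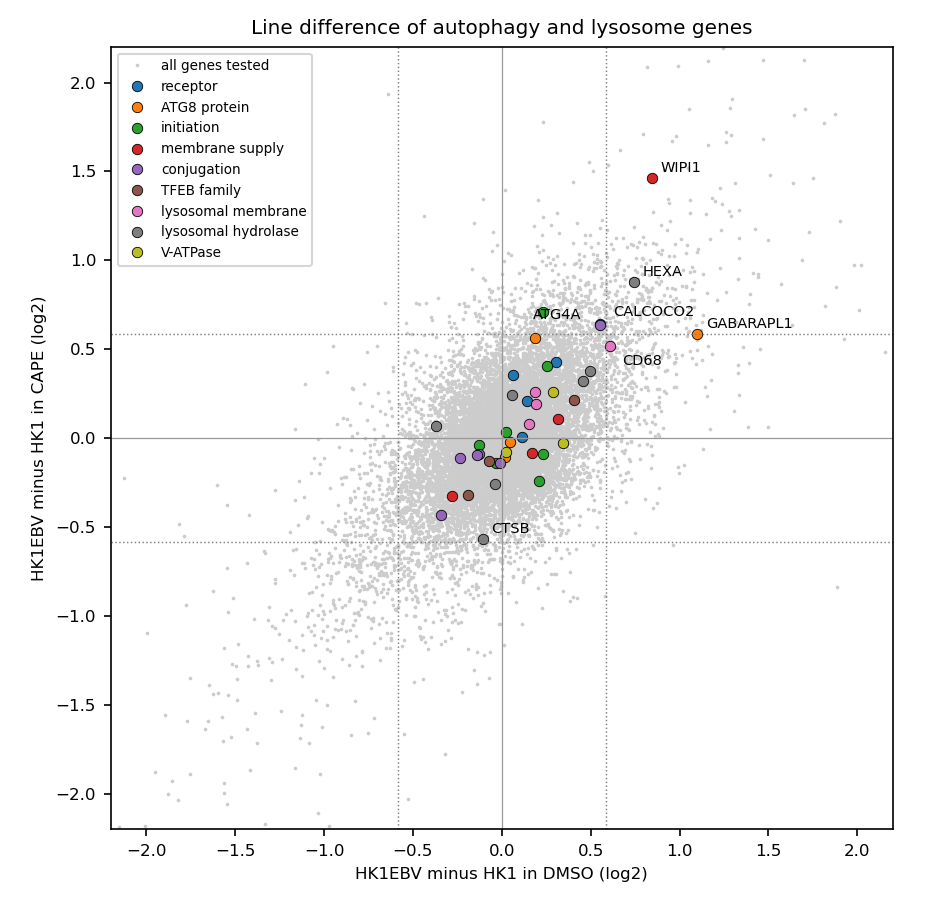
HK1EBV minus HK1 with DMSO (x axis) against the same with CAPE (y axis), both in log2 units, for the 43 genes by role over all genes tested in grey; dotted lines mark 1.5-fold, and 23 genes tested lie outside the axes. WIPI1 and HEXA lie past 1.5-fold under both treatments, and GABARAPL1 just below it with CAPE.

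The CAPE difference was the higher one in HK1 for 25 of the 43 and in HK1EBV for 18. Of all 15194 genes tested it was the higher one in HK1 for 8026 and in HK1EBV for 7121. WIPI1 was the 1 gene of the 43 whose CAPE difference was at least 1.5-fold apart between the lines, larger in HK1EBV by 0.62, while 6.3% of all genes tested were that far apart. At 1.2-fold 10 of the 43 were, against 35.5%, and at 2-fold none (0), against 0.77%. This contrast had no residual degree of freedom and so no test. The next in size, in log2 units of HK1EBV minus HK1, were GABARAPL1 at -0.52, ATG14 at 0.48, CTSB at -0.46, ULK2 at -0.45 and NEU1 at 0.44, given because they follow WIPI1 in order.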

How the data were processed

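RNA of 4 samples was measured on 1 array each, from 250 ng of total RNA per the labels' protocols. Per the submitters' processing notes the deposited values, taken here as log2, were made with RMA, which corrects background, sets arrays to one distribution and summarises probe sets. Its version, the base of the logarithm and any later shift were not given by the sources used here. Values ran from -0.19 to 11.9. The platform annotation named 1 gene for 18612 of 25800 probe sets, more than 1 for 954 and no gene for 6234. Probe sets of 1 gene were used, the brightest for each, and 18583 matched a RefSeq gene table by Entrez number. Genes were tested when their mean reached 0.997, the 25th percentile of probe sets. limma 3.58.1 in R 4.3.3 (lmFit, eBayes) was fitted, two-sided, on treatment plus cell line, which left 1 residual degree of freedom. Benjamini-Hochberg adjustment ran over all 15194 genes with a threshold of 0.05. The code was also run on simulated independent noise without genes of zero residual, so that run says nothing of their effect. An exact permutation of 2 arrays against 2 could not reach that threshold. The error that limma shares over all genes carried 3.90 degrees of freedom, or 9.89 without the genes of zero residual, against 1 of the gene's own. P-values and SE thus give the spread over all genes more weight than that of the single gene, which still widens the SE where it is large. Nothing says that the arrays come from separate cultures. Genes identical in CAPE difference were taken within 1e-08. Of the 43, genes past 1.5-fold in both lines, past limma, or past 1.5-fold between the lines have their value on each array. Other pathway genes are named as the first 4 of a role by size of mean CAPE difference, mostly by differences alone. The remaining members are named so that all 43 are accounted for. The members, lists and motifs were chosen with earlier results of these data known. The promoter table was checked for strand by the place of TATAAA. Alternatives were other filters, normalizations, variance priors, thresholds and probe set rules, no cell line term, and genes of zero residual left out. Leaving out an array would leave no residual degree of freedom.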

Additional observations from a re-analysis of the deposited data

Results flagged for a closer look

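TPCN2, a cation channel of the lysosome outside the 43 genes, moved in opposite ways in the lines, with both differences past 1.2-fold. It read 4.55 with DMSO and 4.98 with CAPE in HK1, and 4.61 and 4.20 in HK1EBV. The CAPE difference in HK1EBV minus that in HK1 was -0.84. With 1 array a group this difference was not tested. Differences of opposite sign at any size were seen in 39 of the 134 other pathway genes (29.1%), TPCN2 included, and in 2 of the 43, against 35.7% of all genes tested.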

How the results depend on the processing

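The count of the 43 genes past limma for CAPE, 0 in the planned fit, was 12 with the filter at the 50th percentile, 12 with arrays shifted to one median, 10 with quantile normalization, 8 with a robust prior and 15 without the genes of zero residual. Over all genes these fits passed 428, 482, 359, 169 and 616 as higher and 466, 524, 396, 210 and 627 as lower. They tested 10733, 15194, 15194, 15194 and 15137 genes in that order. The count of the 43 stayed 0 with no filter, with the mean of probe sets, with a trend in the prior and with no cell line term. For the other pathway genes these counts were 18, 23, 17, 10 and 25 in place of 0. The count passing for the line, 2, was 0 with no filter and 6 with the filter at the 50th percentile, the shift, quantile normalization, the robust prior or the genes of zero residual left out. Of all genes, 12.1%, 10.0%, 8.73%, 6.31% and 11.6% passed for the line in these 5 fits, either way. At 1.2-fold, 22 of the 43 were higher and 2 lower with CAPE in both lines, and at 2-fold 4 were higher. For other pathway genes the counts were 40 and 2 at 1.2-fold and 2 higher at 2-fold. A CAPE difference apart between the lines was counted in 10 of the 43 at 1.2-fold and 0 at 2-fold. The median of the 43 in HK1 was 0.30 after the shift and 0.32 with quantile normalization, and in HK1EBV 0.35 after the shift. For other pathway genes the shift gave 0.16 in HK1 and 0.18 in HK1EBV. Adjusted p for CAPE ranged over these settings from 0.000505 to 0.437 for SQSTM1 and from 0.000640 to 0.571 for WIPI1. The planned fit already pairs the CAPE and DMSO arrays of each line through its cell line term. No gene of the 43 passed for CAPE with that term or without it. With 4 arrays and 1 residual degree of freedom, single genes with small differences could not be resolved, and of ULK2, near the filter, least.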

Other observations

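CTSV, a cathepsin of squamous epithelia and thymus outside the 43 genes, was higher with CAPE by 0.89 in HK1 and differed by -0.11 in HK1EBV. It read 3.31 with DMSO and 4.19 with CAPE in HK1, and 4.94 and 4.83 in HK1EBV, so that the HK1 array with DMSO stood apart from the other 3. NPC1 read 5.50 and 5.88 in HK1 and 4.34 and 5.26 in HK1EBV, lower in HK1EBV under both treatments, and its CAPE difference was larger in HK1EBV by 0.54. It lies on chromosome 18, and the part of gene copy number in its line difference was not tested. Both CTSV and NPC1 were picked after their values were seen.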
